A study of Mus musculus with 6 samples.

Results

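Expression was described for 7 genes of thyroid hormone transport, activation and response, chosen by gene name: Dio1, Thrsp, Klf9, Hr, Slc16a10, Gpd2 and Upp2. The choice was made with earlier results of these data known. A gene was measured where a probe set (a group of short probes against one transcript) carried its symbol alone, which held for 6 of the 7 genes, with 15 of 20380 probe sets. No probe set in the annotation used here names Slc16a10, a transporter of thyroid hormone and aromatic amino acids, and it was not analysed here. The 6 measured genes stand among 12393 genes in all, each read from the probe set with the brightest mean signal.

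The study compared primary hepatocytes of Alb/AEG-1 mice, which overexpress astrocyte elevated gene 1 (AEG-1, encoded by Mtdh) in these cells, with hepatocytes of wild-type mice. Both genotypes were of mixed B6/CBA strain, received no treatment, and were sampled 24 h after plating on collagen, with 3 arrays per genotype. The Alb in the line's name refers to the albumin gene, which is active in hepatocytes, so the transgene adds to the cells' own Mtdh. The labels speak of biological replicates, and whether these came from different animals or only different plates is not stated there, so a p-value here covers only the spread among these arrays, which may be technical. The sources used here give neither the age and sex of the animals nor the share of each parental strain in each genotype.

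Thyroid hormone reaches the liver mostly as thyroxine (T4), a prohormone that is taken up by membrane transporters. Deiodinases remove iodine from it, and the type 1 enzyme of liver and kidney, a selenoprotein encoded by Dio1, converts T4 to the active hormone T3 and clears inactive forms. T3 binds the nuclear receptors THRA and THRB, which sit on DNA mostly as partners of RXR, often at copies of the half-site AGGTCA, and which raise or lower target genes through coactivators and corepressors. THRB is the main receptor of hepatocytes, and Dio1 and Thrsp are classic liver genes raised by T3.

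The arrays are described first. Their median signals lay between 5.61 and 5.64 on the log2 scale, and correlations across genes were between 0.9976 and 0.9982 within a genotype and between 0.9933 and 0.9940 across genotypes. The brightest Mtdh probe set was at 10.72, 10.40 and 10.81 in the transgenic arrays and at 8.75, 8.78 and 8.64 in the wild-type arrays, in the direction of the labels. Of the other 5 Mtdh probe sets 1 was called higher, by 0.24, and 4 were not called (-0.27 to 0.0046), and the mean of all 6 gave 0.28. Hepatocyte markers were at the upper end of the scale, averaging between 13.53 and 13.58 per transgenic array and between 13.54 and 13.57 per wild-type array, and 0 of 11 passed limma's adjusted p threshold of 0.05 (0 at an unadjusted p under 0.05). Of 11 Kupffer cell and leukocyte markers 2 rose, Marco and Ptprc (5 at an unadjusted p under 0.05), and of 8 endothelial markers 2 rose, Clec4g and Kdr (3 at an unadjusted p under 0.05), shares of 18.2% and 25.0% against 15.9% of all genes. Mean levels per array were 6.81 to 6.87 in transgenic and 6.55 to 6.68 in wild-type arrays for the Kupffer cell list, and 5.81 to 5.90 and 5.62 to 5.73 for the endothelial list. Of 8 stellate cell markers 0 passed (1 at an unadjusted p under 0.05). Of 5 cholangiocyte markers 1 rose (20.0%; 2 at an unadjusted p under 0.05) and 4 did not pass. The one that rose was Epcam, by 1.52 (limma adjusted p = 5.24e-05). Mean levels per array for the cholangiocyte list were 5.07 to 5.14 in transgenic and 4.71 to 4.79 in wild-type arrays. Over all 12393 genes, 3586 had an unadjusted p under 0.05, the background for the unadjusted counts above. The part of these other cells in the results below was not tested. In bulk RNA, fewer cells that express a gene and less RNA per cell cannot be told apart.

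The sequence just before the transcription start is shown for Dio1, which had the largest change, and for Upp2, the one member that rose. Each line gives 250 bases, 5′ to 3′, on the strand of the gene, from RefSeq on build GRCm38.p6, with AGGTCA in capitals where it occurs. The Dio1 stretch is chr4:107307169-107307418 on the minus strand, and the Upp2 stretch is chr2:58754934-58755183 on the plus strand, before one of the 2 starts listed for that gene.
Dio1: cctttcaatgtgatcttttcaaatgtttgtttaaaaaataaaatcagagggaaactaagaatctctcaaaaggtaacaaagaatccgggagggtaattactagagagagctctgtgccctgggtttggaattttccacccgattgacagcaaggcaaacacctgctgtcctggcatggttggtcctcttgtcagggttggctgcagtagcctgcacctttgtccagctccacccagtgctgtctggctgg
Upp2: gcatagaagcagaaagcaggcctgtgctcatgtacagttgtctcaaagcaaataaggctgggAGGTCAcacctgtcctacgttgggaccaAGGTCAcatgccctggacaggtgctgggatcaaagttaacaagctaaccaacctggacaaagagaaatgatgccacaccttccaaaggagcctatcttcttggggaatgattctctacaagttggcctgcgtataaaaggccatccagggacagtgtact
AGGTCA was searched on both strands. The Upp2 stretch held 2 copies, both on the strand of the gene, with the first base 188 and 160 bases before the start and 22 bases between the copies. The other 7 starts of the members with a promoter entry (8 starts of 6 genes, Slc16a10 included) held no copy within these 250 bases. Of 32851 mouse starts, 14.0% held at least 1 copy and 1.36% at least 2. The paired form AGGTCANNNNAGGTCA on either strand was in 0 of the 8 starts and in 5 of all starts. A match of letters is not a bound site, and its absence from this window says nothing of more distant sites.

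Among the 6 measured genes, Dio1 fell 3.56-fold in transgenic hepatocytes and Gpd2 fell 1.27-fold, while Upp2 rose 1.17-fold. Thrsp was 1.12-fold lower without passing the test, and Klf9 and Hr did not pass at their brightest probe sets. By limma with Benjamini-Hochberg adjustment over all genes, 3 of the 6 passed (1 higher and 2 lower), against 15.9% of all 12393 genes, 6.83% higher and 9.05% lower. Without transgenic replicate 1 the count over all genes was 1267 in place of 1967. The median difference (transgenic minus wild type, as throughout) was -0.11 over the 6 genes and 0.01 over all genes. For 4 of the 6 genes all arrays of one genotype lay above all of the other, against 34.5% of all genes. With so few members, and with members and pathway lists drawn up when earlier results of these data were known, these counts describe the genes and do not set them apart.

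**Figure D1:**
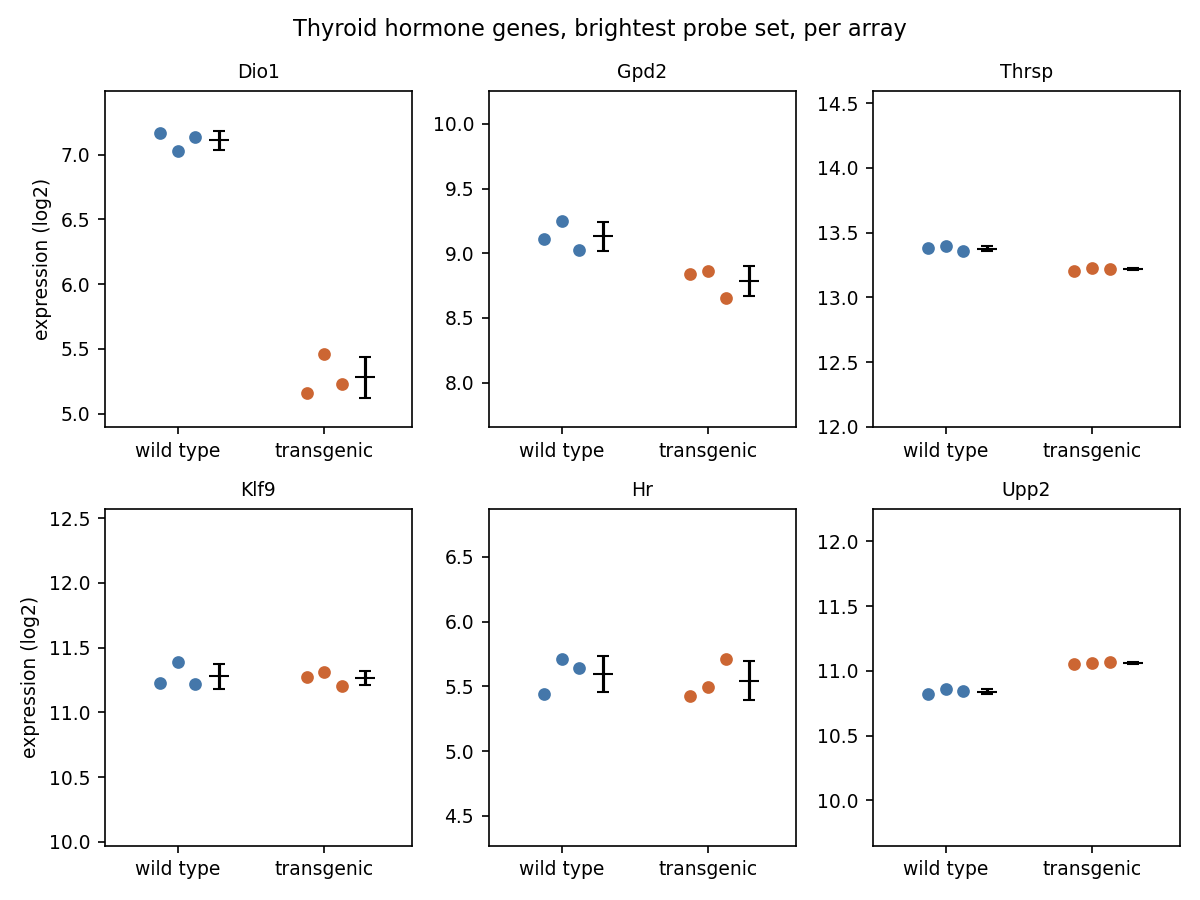
Log2 expression per array of the 6 measured genes at their brightest probe sets, wild type in blue and transgenic in orange, with the mean and SD of 3 arrays beside the points; every vertical axis spans the same range of log2 units. The Dio1 groups lie far apart, Gpd2, Thrsp and Upp2 show small gaps, and the Klf9 and Hr groups overlap.

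Dio1, the activating deiodinase, was at 7.17, 7.03 and 7.14 on the log2 scale in the wild-type arrays and at 5.16, 5.46 and 5.23 in the transgenic arrays. All 3 transgenic arrays were below all 3 wild-type arrays, and the gap between the nearest arrays of the groups was 1.57. The means were 5.28 ± 0.16 in transgenic and 7.11 ± 0.07 in wild-type cells (SD, n = 3 each). Dio1 thus fell by 1.83 (SE 0.09, 95% interval -2.03 to -1.63), with a limma adjusted p of 9.65e-06. This was the decrease of rank 13 among 12393 genes. The gene has 1 probe set on the array, so no other probe set bears on the value. The transgenic level is under 5.63, the array median, and so in the dim part of the scale, where a fold is less certain. Leaving out any one array gave differences from -1.92 to -1.77, with adjusted p from 2.00e-05 to 0.000180.

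The other enzymes that remove iodine or conjugate the hormone gave no shared direction. Dio2, the other activating deiodinase, which is mainly an enzyme of brain, pituitary and brown fat, was at 4.27 ± 0.10 in transgenic and 4.10 ± 0.11 in wild-type cells (SD, n = 3), both far under the array median (limma adjusted p = 0.230). Iyd, which recovers iodide from iodotyrosines, gave a difference of -0.11 (adjusted p = 0.260). Among the sulfotransferases, a family that sulfates phenols including thyroid hormones, Sult1d1 fell by 0.70 (SE 0.08, adjusted p = 0.000894), from 10.88 ± 0.06 to 10.18 ± 0.14. The values for Sult1b1 and Sult1a1 were -0.17 and 0.01 and did not pass. In all, 1 of 6 tested genes of deiodination and conjugation fell, 0 rose and 5 did not pass (16.7% called, near the 15.9% of all genes), with a list median of -0.05.

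Gpd2 encodes the mitochondrial glycerol-3-phosphate dehydrogenase, which feeds electrons from cytosolic glycerol-3-phosphate into the respiratory chain and whose activity in liver is a classic readout of thyroid status. It was at 9.11, 9.25 and 9.03 in wild-type and at 8.84, 8.86 and 8.65 in transgenic arrays. The groups did not overlap, but the nearest arrays were only 0.17 apart, and the third transgenic array was the lowest of the 6. The difference was -0.35 (SE 0.08, 95% interval -0.54 to -0.16, limma adjusted p = 0.0260). The call was lost without transgenic replicate 1 (adjusted p = 0.0544), without transgenic replicate 3 (0.0781), without wild-type replicate 1 (0.0561) and without wild-type replicate 2 (0.0815), with differences from -0.40 to -0.28 over the 6 omissions. Gpd2, like Dio1, has 1 probe set.

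Thrsp, also called Spot 14, is a regulator of fatty acid synthesis that was found through its rapid rise after T3 treatment of rat liver. Its brightest probe set was at 13.38, 13.39 and 13.36 in wild-type and at 13.21, 13.23 and 13.22 in transgenic arrays. The arrays of each genotype lay within a very narrow band, and the bands did not overlap. The difference was -0.16 (SE 0.05, 95% interval -0.27 to -0.04), with a limma adjusted p of 0.0728. The second probe set, 1422973_a_at, was at 12.25, 12.28 and 12.19 against 12.35, 12.39 and 12.38, a difference of -0.13 (adjusted p = 0.194 over all probe sets). The first probe set passed when the variance prior followed mean expression (adjusted p = 0.000805), when genes with a mean under 5 were left out (0.0293) and after quantile normalization (0.0444), and the direction was the same under all of the alternatives run for it.

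Upp2 encodes uridine phosphorylase 2, which splits uridine to uracil and ribose-1-phosphate and is found mainly in liver. It was at 11.05, 11.06 and 11.07 in transgenic arrays and at 10.82, 10.86 and 10.84 in wild-type arrays. All transgenic arrays were above all wild-type arrays. The difference was 0.22 (SE 0.05, 95% interval 0.11 to 0.34, limma adjusted p = 0.0211). Its other probe set, 1451548_at, read 10.61, 10.74 and 10.62 against 10.41, 10.39 and 10.49, a difference of 0.23 (adjusted p = 0.0539 over all probe sets). The 2 probe sets thus gave nearly the same size, and both kept the genotypes apart. The call at the brighter probe set was lost without any one of transgenic replicate 1 (adjusted p = 0.0696), transgenic replicate 2 (0.0633), transgenic replicate 3 (0.0661), wild-type replicate 1 (0.0503) and wild-type replicate 3 (0.0618), with differences from 0.21 to 0.23. Upp2 and Gpd2 lie on the same chromosome with 3 measured genes between them, and they differed in opposite directions.

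Hr encodes hairless, a corepressor of the thyroid hormone and vitamin D receptors and itself a target of T3 in brain. Its brighter probe set was at 5.44, 5.71 and 5.64 in wild-type and at 5.43, 5.49 and 5.71 in transgenic arrays, close to the array median. The groups overlapped almost fully. The difference was -0.05 (95% interval -0.28 to 0.17, limma adjusted p = 0.775). The dimmer probe set, 1435950_at, was at 4.53, 4.43 and 4.49 in transgenic and 4.32, 4.32 and 4.39 in wild-type arrays, a difference of 0.14 that did not pass (adjusted p = 0.166).

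Klf9, a zinc finger transcription factor that T3 and glucocorticoids induce, was read by 7 probe sets that disagreed in direction. The brightest, 1456341_a_at, was at 11.22, 11.39 and 11.22 in wild-type and at 11.28, 11.31 and 11.20 in transgenic arrays. These groups overlapped, with a difference of -0.01 (95% interval -0.17 to 0.14, limma adjusted p = 0.931). Of the other 6 probe sets, tested over all probe sets, 3 were lower, 2 were higher and 1 did not pass.

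Lower readings came from 3 probe sets. Probe set 1428289_at fell by 0.48 (SE 0.07, adjusted p = 0.00267), from 11.09, 11.26 and 11.14 to 10.70, 10.71 and 10.62. Probe set 1428288_at fell by 0.41 (SE 0.06, adjusted p = 0.00293), from 10.41, 10.50 and 10.41 to 10.02, 10.06 and 10.01. These 2 and the dimmest probe set, 1452723_at, carry the same sequence accession in the platform annotation. Probe set 1422264_s_at fell by 0.58 (SE 0.09, adjusted p = 0.00549), from 7.81, 8.06 and 8.13 to 7.34, 7.40 and 7.52. In each of these 3 the genotypes did not overlap.

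Higher readings came from 2 probe sets. Probe set 1436763_a_at was at 7.74, 7.93 and 7.69 in wild-type and at 8.26, 8.25 and 8.59 in transgenic arrays, a rise of 0.58 (SE 0.11, adjusted p = 0.00981). Probe set 1436952_at was at 5.92, 6.05 and 6.05 and at 6.25, 6.50 and 6.40, a rise of 0.38 (SE 0.08, adjusted p = 0.0184). The groups did not overlap in either. The seventh, 1452723_at, was near background, at 3.90 against 3.81 on average, and the groups overlapped (adjusted p = 0.581). Of 4956 genes with several probe sets, 21 (0.424%) had probe sets called in both directions, and Klf9 is one of them. Over all probe sets, 12.6% were called. The 3 lower calls and that of 1436763_a_at were kept without any single array, while that of 1436952_at was lost without transgenic replicate 2, transgenic replicate 3 or wild-type replicate 1 (adjusted p = 0.0590, 0.0634 and 0.0530). The value for Klf9 therefore depends on the probe set taken. Without probe sets whose suffix marks several transcripts the gene is read by 1428289_at and passes as lower (-0.48, adjusted p = 0.00218), and as the mean of the 7 it does not pass (-0.09, adjusted p = 0.351). Which stretch of the transcript each probe set reads was not analysed here.

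**Figure D2:**
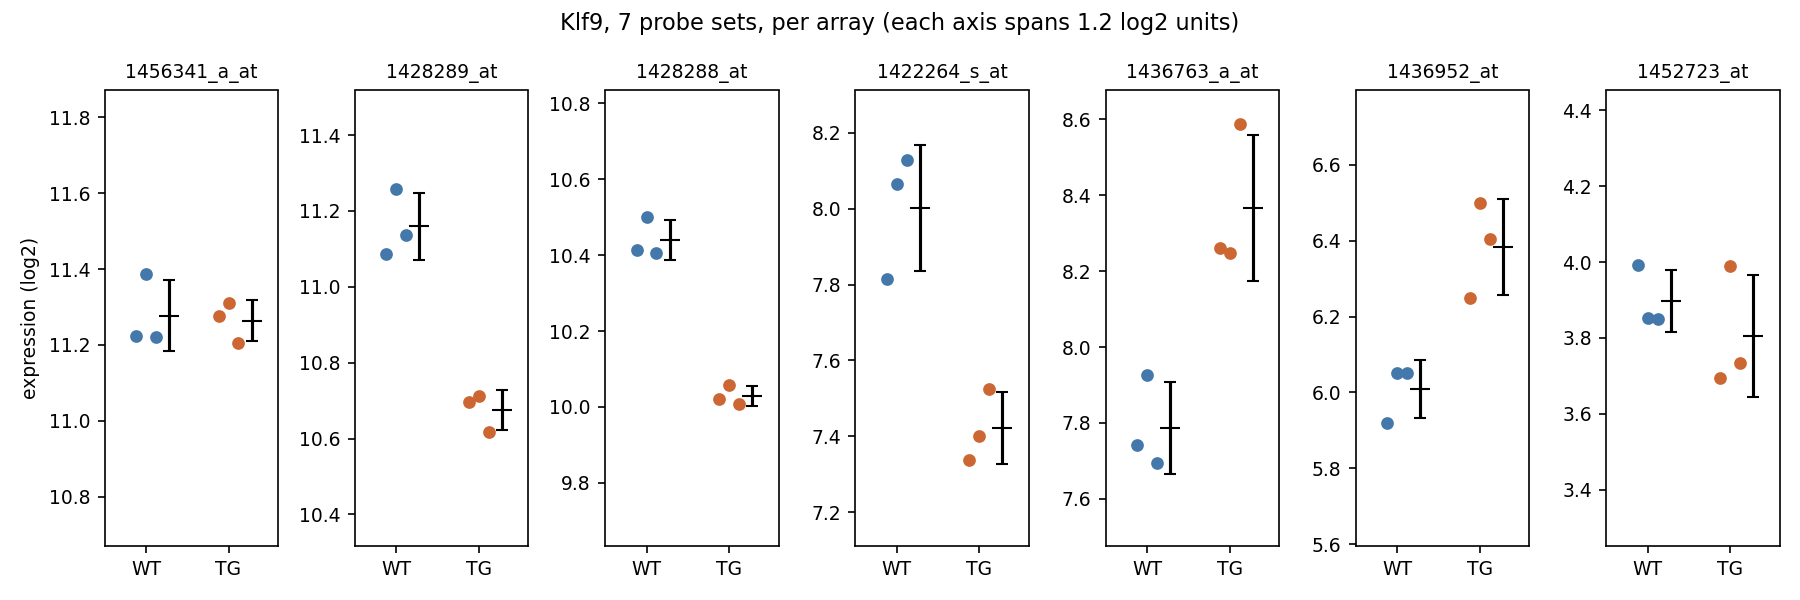
Log2 expression per array for the 7 Klf9 probe sets, in order of wild-type brightness, wild type (WT) in blue and transgenic (TG) in orange, with the mean and SD of 3 arrays beside the points. From the left, the first and last overlap, the next 3 are lower in transgenic arrays and the 2 after them are higher.

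The other genes of the pathway were taken as lists of 56 genes, of which 48 were tested. Of these 5 rose, 13 fell and 30 did not pass (37.5% called, against 15.9% of all genes), with a median difference of -0.05. Among 8 transporter genes 1 rose, 2 fell and 5 did not pass (37.5% called). Slco1a4, an organic anion transporter of the sinusoidal membrane, fell by 0.88 (SE 0.07, adjusted p = 0.000188), from 9.53 ± 0.11 to 8.65 ± 0.07 (SD, n = 3). Slc7a5 and Slc3a2 encode the light and heavy chain of one amino acid exchanger that also carries thyroid hormone. Slc7a5 rose by 0.30 (SE 0.06, adjusted p = 0.0102) and Slc3a2 fell by 0.59 (SE 0.06, adjusted p = 0.000766). The liver transporter genes Slco1b2 and Slc10a1 gave -0.04 and 0.15 and did not pass. Of the binding proteins, Crym, a cytosolic protein that binds T3, fell by 0.66 (SE 0.07, adjusted p = 0.000707), while the serum carriers Ttr and Alb gave -0.04 and 0.01 and did not pass.

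Among 5 receptor genes Rxra fell and the other 4 did not pass (20.0% called, against 15.9% of all genes). Thrb was at 5.05 ± 0.10 in transgenic and 4.90 ± 0.10 in wild-type cells (SD, n = 3), under the array median, with a difference of 0.16 (limma adjusted p = 0.220). Thra at its brighter probe set gave -0.05 (adjusted p = 0.568), while its dimmer probe set, 1426997_at, was lower by 0.26 over all probe sets (adjusted p = 0.0290). Rxra, the RXR form that dominates in liver, fell by 0.38 (SE 0.06, adjusted p = 0.00610), from 8.77 ± 0.09 to 8.38 ± 0.05. Its other probe set, 1425762_a_at, gave 0.06 (adjusted p = 0.542), and as the mean of both the gene gave -0.16 and missed the threshold (adjusted p = 0.0658). Of 10 coregulators 20.0% were called. Nrip1, a corepressor of several nuclear receptors, fell by 0.87 (SE 0.09, adjusted p = 0.000531). Ncoa3, a coactivator, rose by 0.43 (SE 0.08, adjusted p = 0.00853). The other 8 did not pass at their brightest probe sets, but over all probe sets 2 of Med1, 1450402_at and 1453972_x_at, were higher by 0.33 and 0.28 (adjusted p = 0.0178 and 0.0453), and 1 of Thrap3, 1427408_a_at, by 0.23 (adjusted p = 0.0352).

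Of 14 other genes listed as raised by T3 in liver, 6 fell, 3 rose and 5 did not pass, with a list median of -0.29. The called share was 64.3%, against 15.9% of all genes, in a list drawn up with earlier results of these data known. Pdk4, the kinase that shuts off pyruvate dehydrogenase, was at 7.47 ± 0.14 in transgenic against 9.16 ± 0.09 in wild-type cells (SD, n = 3) and fell by 1.69 (SE 0.08, adjusted p = 1.05e-05). Cyp7a1, which starts bile acid synthesis, fell by 1.05, the glucose phosphatase gene G6pc by 0.86 and the lipogenic regulator gene Srebf1 by 0.52. T3 has also been reported to lower Srebf1 in mouse liver, so its place in this list is uncertain. Me1 and Fasn, which supply NADPH and build fatty acids, also fell. Bcl3, a coregulator of NF-kB and a T3 target of mouse liver, rose by 0.31, the gluconeogenic gene Pck1 by 0.30 and Mlxipl, the glucose-responsive lipogenic factor, by 0.28. Of the 2 listed genes that T3 lowers in liver, Scd1, a desaturase, fell by 0.45 (SE 0.05, adjusted p = 0.00127), although its other probe set, 1415965_at, gave -0.11 (adjusted p = 0.407), and Gsta2 gave 0.07 and did not pass. Many of these genes answer to other regulators too, such as insulin, sterols and fatty acids, and the counts do not measure the activity of the hormone or its receptors.

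**Figure D3:**
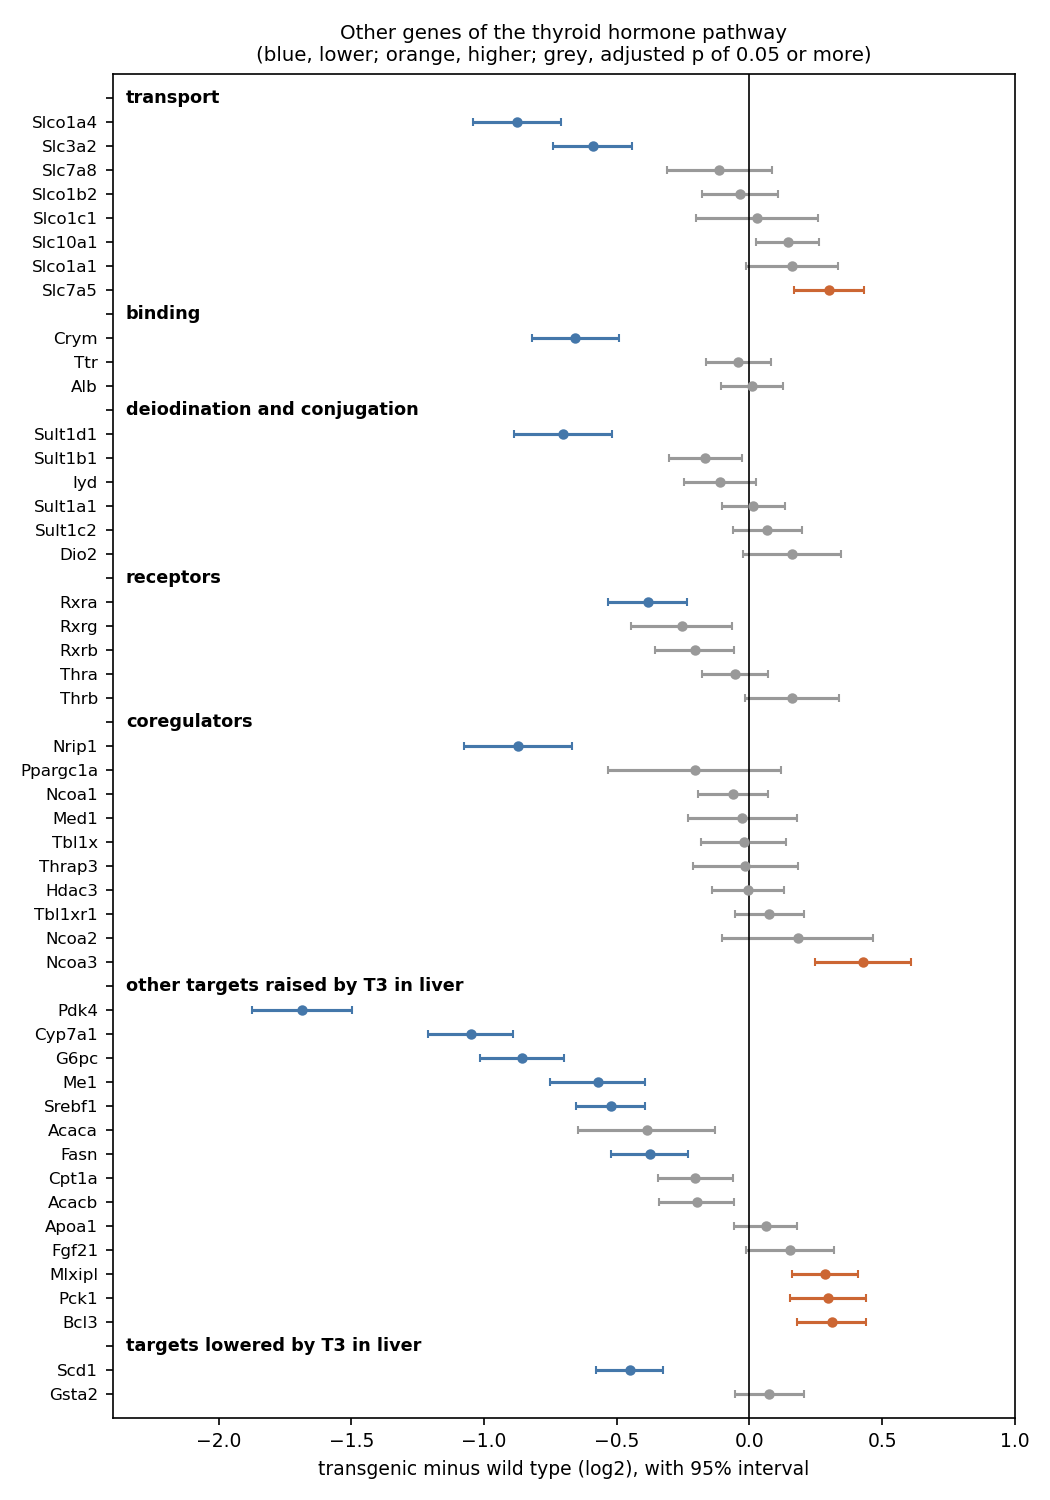
Difference between transgenic and wild-type hepatocytes (log2, horizontal axis) with its 95% interval for the 48 tested pathway genes, grouped by role as listed. Orange marks the 5 genes that rose, blue the 13 that fell and grey the 30 that did not pass; Pdk4, at -1.69, is the farthest from 0.

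The 5 genes whose profile over the 6 arrays was most like that of Dio1, by Pearson correlation, were Aspa, Cyp7a1, Tmem98, G0s2 and Ighm. The correlations lay between 0.998 and 0.999, and since the arrays fall into 2 genotypes they mostly restate a lower level in all 3 transgenic arrays. The differences were -0.53 for Aspa, which cleaves N-acetylaspartate, -1.05 for Cyp7a1, -1.07 for Tmem98, a membrane protein, -0.93 for G0s2, an inhibitor of triglyceride lipase, and -1.80 for Ighm, the immunoglobulin mu chain. The Ighm value depends on the probe set and was 0.14 once probe sets whose suffix marks several transcripts were left out.

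The measured genes next to the members, 5 on each side in the reference gene order, were read as well. Of 63 such genes that are no members 4 rose and 8 fell (19.0%), near the 15.9% of all genes. Next to Dio1, 1 of 10 was called, Hspb11, which encodes a protein of intraflagellar transport and fell by 0.26 (adjusted p = 0.0441), a call lost under 11 of 17 alternatives, among them the omission of any one array except wild-type replicate 1 (adjusted p up to 0.128). Next to Thrsp, 2 of 10 fell, Aamdc by 0.74 (adjusted p = 7.89e-05) and Clns1a by 0.21 (adjusted p = 0.0320), a call lost without any one of the 6 arrays (adjusted p from 0.0547 to 0.102). Next to Klf9, 3 of 10 fell, among them Gda, the guanine deaminase, by 0.68 (adjusted p = 0.000682), and 1 rose, Tmc1, a call lost without any one array except wild-type replicate 2 (adjusted p up to 0.101) and as the mean of its probe sets (adjusted p = 0.240). Between Gpd2 and Upp2 lies Acvr1, a receptor of bone morphogenetic proteins, which fell by 0.64 (adjusted p = 0.000616). As the mean of its probe sets Acvr1 gave -0.21 (adjusted p = 0.0297).

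**Figure D4:**
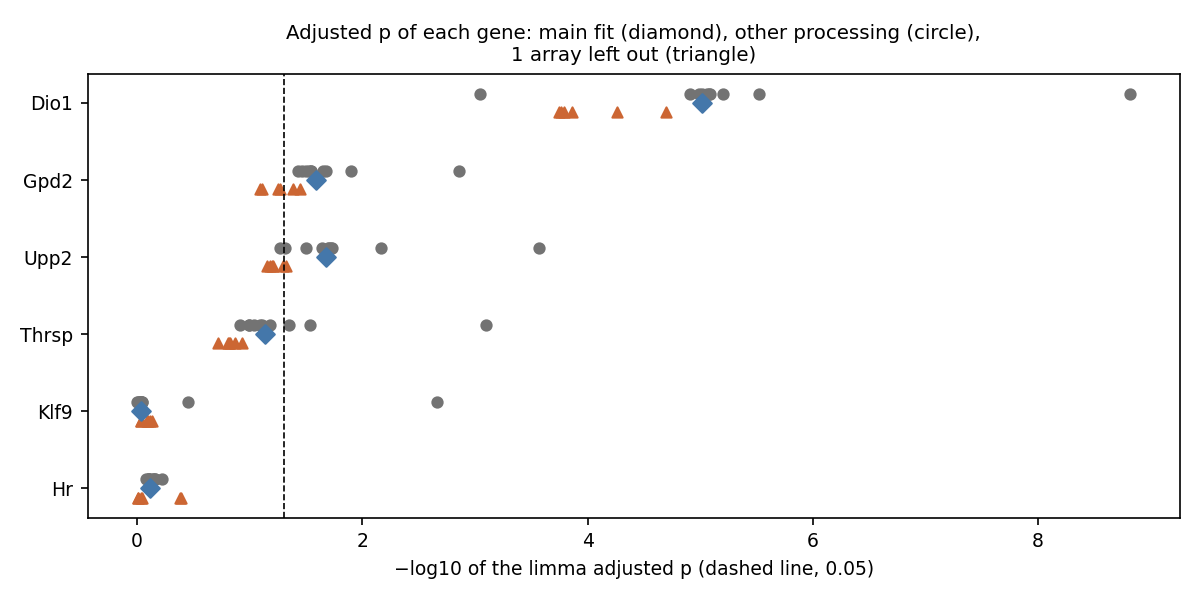
Limma adjusted p of each measured gene, as −log10 (horizontal axis, dashed line at 0.05), in the main fit (diamond), under other processing (circles) and with 1 array left out (triangles). Dio1 stays right of the line throughout, Gpd2, Upp2 and Thrsp fall on both sides, Klf9 passes under 1 setting and Hr under none of those shown.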

How the data were processed

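Expression was measured on 6 Affymetrix arrays of mouse hepatocytes, 3 per genotype. The deposited values are log2 expression per probe set, which the authors computed with the RMA method of Affymetrix Expression Console according to the notes on processing, per the labels. The sources used here give neither its version nor whether the 6 arrays were normalized as one set. RMA equalises distributions between arrays, so values are relative to the rest of the transcriptome. Arrays have no read depth, and their number limits the precision.

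Of 22690 probe sets, 64 were controls, 20380 carried 1 gene symbol, 691 several and 1555 none. Genotypes were compared with limma 3.58.1 in R 4.3.3 (tables read with data.table, version 1.17.8), two-sided, using lmFit and eBayes, with Benjamini-Hochberg adjustment over 12393 genes and a threshold of 0.05. Single probe sets were tested over all 20380. The procedure was tested on simulated data.

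The members and lists were chosen with earlier results of these data known. Named are all members, Mtdh, Thra, Thrb and Rxra, and up to 4 called genes per pathway list. The 5 genes most like Dio1 and some of the called neighbours are named too. Other genes were named after their values were seen. The same-number pairs of arrays had deviations correlated at -0.01, -0.01 and 0.10. Alternatives covered probe set choice, a filter at 5, scaling, variance prior, weights, the replicate block, thresholds and leaving out each array. Gene order came from RefSeq on GRCm38.p6, and coordinates are given for the promoter stretches alone.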

Additional observations from a re-analysis of the deposited data

How the results depend on the processing

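The decrease of Dio1 kept its direction and its side of the threshold under all 17 alternatives run for it, with differences from -1.92 to -1.77. Several of these could not change its difference. Dio1 has 1 probe set, and the filter, variance prior, block and threshold act on its adjusted p or its call alone. Of the 6 measured genes, 1 rose and 2 fell. With the replicate number as a block, 0 rose, since Upp2 missed the threshold (0.22, adjusted p = 0.0544), and the count that fell stayed at 2. Over all genes 1505 were called with the block, against 1967 without it. The same-numbered arrays share only a number. At an adjusted p under 0.01, 0 rose and 1 fell, with 2 pathway genes higher and 918 genes called in all. At an adjusted p under 0.05 and at least 1.5-fold, 0 rose and 1 fell. That setting was counted for the members alone, so no share of all genes stands beside it. Leaving out 1 array gave 0 to 1 risen and 1 to 2 fallen members, and 1267 to 1700 called genes. Counts also went up: 3 members fell with genes under 5 left out, after quantile normalization and with a variance trend, where Thrsp passed. Without probe sets that match several transcripts 3 fell too, there with Klf9, read by another probe set, in place of Thrsp. The filter tested only genes with a mean of 5 or more, so its 2341 called genes are out of fewer than 12393. The trend gave 2619 called genes, with 7 higher and 18 lower pathway genes. The signs of Hr and Klf9, both near 0 at their brightest probe sets, changed. Hr gave 0.046 as the mean of its probe sets. With 1 array left out Hr gave between -0.14 and 0.0054 (above 0 without transgenic replicate 1 or wild-type replicate 2). Klf9 with 1 array left out gave between -0.041 and 0.041 (above 0 without transgenic replicate 3 or wild-type replicate 2). Without probe sets that match several transcripts Klf9 gave -0.48. Ighm gave 0.14 without probe sets that match several transcripts. Settings for single probe sets were chosen after seeing the data. Quantile normalization and median centring moved the median difference of all genes by less than 0.1. The precision rests on 3 arrays per genotype, and Dio1 in transgenic cells, Hr, Thrb and Dio2 lie near or under the array median, where signal is closest to background.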
